A study of Mus musculus with 24 samples.

Results

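Adgre1, Cd68, Csf1r, Mrc1, Cd163, Lyve1, Timd4 and Folr2 are genes by which resident tissue macrophages of the mouse are commonly recognized. They were taken by symbol from the deposited expression tables, in which these 8 were among 56895 entries, and all 8 passed the filter on low values among the 18399 genes tested over 24 libraries. The RNA came from retroperitoneal white adipose tissue of 24 C57BL/6J offspring, with 3 mice in each of 8 groups. CTRL mothers had received an AIN-93G diet containing vitamin D3 at 1.0 IU/g and VDD mothers the same diet at 0.0 IU/g. The VDD diet was given for at least 8 weeks before mating and during gestation. Every mother was fed the CTRL diet from birth to weaning. At 6 weeks of age the offspring of either sex were placed for 8 weeks on the AIN-93M low fat diet (LF) or on a diet supplying 45% of energy as fat (HF). The 4 male groups were thus CTRL LF, CTRL HF, VDD LF and VDD HF, and the 4 female groups carried the same names. The labels give the strain as C57BL/6J and the study's methods name the parents C57BL/6JRJ. No transgene or gene deletion was involved. Litter of origin was not given in the sources used here, so p-values measure the spread between mice that may share a mother.

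Resident macrophages of fat lie between adipocytes and along vessels, where they clear dying cells and debris, buffer iron and lipid, and depend on signals through the receptor encoded by Csf1r. Some of them are laid down before birth and renew locally, and Timd4, Lyve1 and Folr2 are widely used to mark such long-lived cells. Feeding a fatty diet is known to add macrophages from blood monocytes, and those cells carry Adgre1, Cd68 and Csf1r but usually little Timd4 or Lyve1. In whole tissue, fewer cells of a type and less RNA per cell cannot be told apart, and this holds for every level given here.

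The promoters of 3 members are shown: Cd68 and Folr2, which passed the stricter test for a rise under the HF diet, and Cd163, which did not. Mrc1 and Timd4 also have windows and did not pass that test either, but their windows are not shown. RefSeq windows on GRCm38.p6, running from 250 bases before to 50 bases after a start site, were found for 5 of the 8 members (Cd68, Mrc1, Cd163, Timd4 and Folr2, the last with 2 start sites) and not for Adgre1, Csf1r or Lyve1. A set of letter strings were searched on both strands: GAGGAA, the core bound by PU.1, which directs macrophage identity, CACGTG, the E-box read by the MiT and TFE factors of lysosomal genes, and TGCTGA, a half-site of the MAF factors. None of the 3 strings overlaps another in these windows. Capitals mark a match to any of them on either strand, and the sequences run 5′ to 3′ along the gene.
Cd68, chr11:69666121-69666420, minus strand: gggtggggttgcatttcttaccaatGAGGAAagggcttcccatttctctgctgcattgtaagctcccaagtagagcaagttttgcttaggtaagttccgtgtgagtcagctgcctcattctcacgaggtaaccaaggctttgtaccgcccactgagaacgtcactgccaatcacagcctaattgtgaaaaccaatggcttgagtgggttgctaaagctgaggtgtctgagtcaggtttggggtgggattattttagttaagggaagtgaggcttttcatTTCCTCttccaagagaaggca
Folr2, upstream start, chr7:101857141-101857440, minus strand: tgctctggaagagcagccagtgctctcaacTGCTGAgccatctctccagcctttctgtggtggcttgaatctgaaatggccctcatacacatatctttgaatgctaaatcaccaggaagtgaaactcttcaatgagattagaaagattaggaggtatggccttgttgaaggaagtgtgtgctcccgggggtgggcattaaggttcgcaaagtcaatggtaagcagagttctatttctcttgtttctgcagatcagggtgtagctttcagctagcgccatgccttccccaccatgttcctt
Folr2, downstream start, chr7:101845282-101845581, minus strand: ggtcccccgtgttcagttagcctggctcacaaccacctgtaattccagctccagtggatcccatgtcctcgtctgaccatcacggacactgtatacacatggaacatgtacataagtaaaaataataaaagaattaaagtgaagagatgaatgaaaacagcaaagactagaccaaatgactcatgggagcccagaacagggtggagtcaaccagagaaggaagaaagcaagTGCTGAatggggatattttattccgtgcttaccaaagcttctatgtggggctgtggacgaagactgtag
Cd163, chr6:124304401-124304700, plus strand: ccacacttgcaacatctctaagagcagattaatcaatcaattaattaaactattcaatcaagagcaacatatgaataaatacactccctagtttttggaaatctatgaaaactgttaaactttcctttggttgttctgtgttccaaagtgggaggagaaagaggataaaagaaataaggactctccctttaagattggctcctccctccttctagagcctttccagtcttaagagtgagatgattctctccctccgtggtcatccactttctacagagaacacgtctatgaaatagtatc

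The Cd68 window held GAGGAA at 2 places, and the Mrc1 window, not shown, held it at 3. Of all 32851 promoter windows of this length, 28.3% contained GAGGAA. Both Folr2 windows held TGCTGA at 1 place each and the Timd4 window at 2, against 19.5% of all windows. CACGTG was found in no window of a member and in 7.15% of all windows. The Cd163 window held none of the 3 strings. A match is a description of the letters only.

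By position on GRCm38, the mm10 build that the submitters' notes name, the members lie on 6 chromosomes. In GENCODE M21, which may differ from the annotation the authors counted on, Adgre1 spans chr17:57358691-57483527, Csf1r chr18:61100598-61132149 and Lyve1 chr7:110850607-110863239. Mrc1 spans chr2:14229392-14332057, Cd163 chr6:124304656-124330527 and Timd4 chr11:46810800-46844332. Cd68 (chr11:69664213-69666153) and Folr2 (chr7:101839988-101857194) complete the set, and all are protein-coding. Csf1r overlaps Hmgxb3 and Folr2 overlaps Gm10602 and Gm45319 on the opposite strand. The library kit keeps the strand, but whether counting used it was not given in the sources used here, so reads of these neighbours could be included. Mir511 and Mir6983 lie within Mrc1 and Csf1r on the same strand.

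The libraries held 13346779 to 18484346 reads assigned to genes. Genes of other tissues were high in some libraries. The summed level of 12 skeletal muscle genes, led by Myh4 and Acta1, ranged from 562 to 1289587 normalized reads and was above 100000 in 4 libraries, all from VDD offspring (VDD LF male 2310, VDD HF males 2298 and 2307, VDD LF female 2303). Fits without these 4 libraries hold 1 VDD HF male, mouse 2308. The adrenal genes, led by Hsd3b1 and Cyp11a1, summed to 9879 and 32564 in CTRL HF females 2290 and 2292 and to 18876 in VDD HF female 2121, the kidney genes, led by Lrp2 and Slc34a1, to 9489 in VDD LF female 2303, and the T lymphocyte genes to 1698 in VDD HF female 2081 against 137 to 577 elsewhere. Adipocyte genes, led by Fabp4 and Adipoq, were high throughout, at 312030 to 888161 normalized reads for 9 genes. In the deposited columns 6 libraries bear the word renal, unexplained in the sources used here.

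Levels of the members were compared with each other per kilobase of exon, in normalized reads (reads divided by a size factor common to the 24 libraries). Folr2 had the highest median, 344 normalized reads per kb, followed by Cd68 (322) and Csf1r (298), which are broad macrophage markers. Folr2 exceeded Cd68 in 16 of 24 libraries and Cd68 exceeded Csf1r in 14, so neither order held in every library. Mrc1, the mannose receptor, had a median of 208 and stood below Csf1r in 23 of 24 libraries. Adgre1, an adhesion receptor (167), and Cd163, the receptor for haemoglobin bound to haptoglobin (151), changed places between libraries, largely with diet. Adgre1 was higher in 13: every HF library except VDD HF female 2083, plus CTRL LF female 2124 and VDD LF female 2312. Lyve1, a hyaluronan receptor shared with lymphatic endothelium, reached 118. Timd4, a receptor for phosphatidylserine on dying cells, had the lowest median, 18.9, and was below Lyve1 in 24 of 24 libraries.

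**Figure D1:**
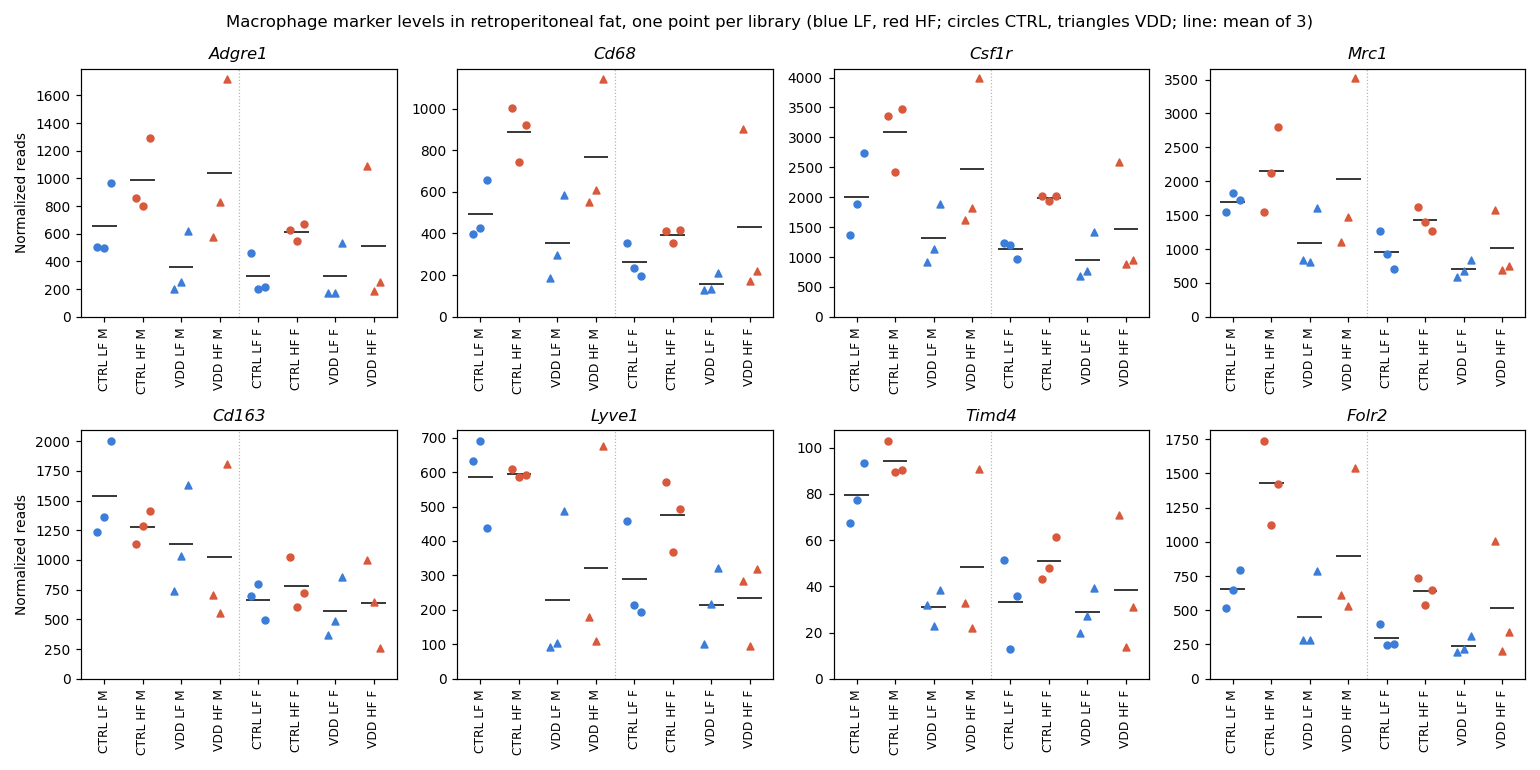
Normalized reads (vertical axis, from 0) of the 8 macrophage markers in each of 24 libraries, by group on the horizontal axis (M males left of the dotted line, F females right of it), with LF in blue, HF in red, CTRL as circles, VDD as triangles and the mean of 3 as a line. VDD HF male 2308 and VDD HF female 2081 stand above the other libraries of their groups for most markers, with Adgre1 at 1717 and 1090 normalized reads.

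The first question was whether the HF diet altered these markers in offspring of CTRL or VDD mothers. Averaged over mother's diet and sex, Folr2 and Cd68 rose under HF by 1.01 and 0.94 on the log2 scale, and no member fell. Csf1r, Adgre1 and Mrc1 were higher by 0.72, 0.98 and 0.53 and passed an adjusted p of 0.05 without meeting the stricter rule. Lyve1, Timd4 and Cd163 did not pass either threshold. A gene was called at an adjusted p under 0.01 (limma over all genes, Benjamini-Hochberg) together with a fold change above 1.5 or below 0.66, the thresholds in the study's methods. By this rule 2 of the 8 members were called higher, beside 5.79% of all genes called higher and 9.44% called in either direction, and 5 of the 8 were higher at an adjusted p under 0.05, beside 15% of all genes. The median difference of the 8 members was 0.63 on the log2 scale and that of all genes 0.01.

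Folr2 encodes folate receptor beta. In CTRL males its level was 514, 647 and 796 normalized reads under LF and 1126, 1424 and 1736 under HF. In VDD males it was 281, 284 and 786 under LF and 528, 610 and 1540 under HF. The CTRL male groups did not overlap, where 13.3% of all genes were likewise higher without overlap. The VDD male groups overlapped, because VDD LF male 2310 was above 2 of the HF mice. In CTRL females Folr2 was at 247, 252 and 400 under LF and at 536, 649 and 739 under HF. In VDD females it was at 197, 216 and 312 under LF and at 200, 342 and 1006 under HF. Only the CTRL female groups were apart there, since VDD HF female 2083 lay among the LF mice. In CTRL females 18.4% of all genes were likewise higher without overlap. The averaged difference was 1.01 (SE 0.24, 95% interval 0.50 to 1.51, adjusted p = 0.00424 by limma), 2.01-fold. It remained called when any single library was left out, with adjusted p from 0.000959 to 0.00912. It was no longer called without the 6 libraries named renal (1.08, adjusted p = 0.0260).

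Cd68, a glycoprotein of late endosomes and lysosomes, followed a like course. CTRL males had 397, 424 and 658 normalized reads under LF and 744, 923 and 1001 under HF. CTRL females had 198, 235 and 352 under LF and 353, 412 and 418 under HF. Neither pair of groups overlapped, although the highest LF female and the lowest HF female nearly touched. Of all genes, 13.3% in CTRL males and 18.4% in CTRL females were likewise higher without overlap. VDD males had 184, 296 and 583 under LF and 549, 608 and 1141 under HF. VDD females had 127, 135 and 208 under LF and 170, 220 and 903 under HF. Both VDD pairs overlapped, and VDD HF female 2081 alone held more Cd68 than the other 2 mice of that group together. The averaged difference was 0.94 (SE 0.24, adjusted p = 0.00594 by limma), 1.92-fold. Its call was narrow: it was kept in 11 of the 24 fits that each left out 1 library, those without CTRL LF male 2296, CTRL HF male 2128, VDD LF male 2310, VDD HF males 2298 and 2307, CTRL LF female 2124, CTRL HF female 2291, VDD LF female 2312 and each of the 3 VDD HF females, and was lost in the other 13, where the adjusted p reached 0.0128.

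Csf1r encodes the receptor for CSF1 and IL34, on which macrophage survival depends. In CTRL females it had 961, 1199 and 1236 normalized reads under LF and 1928, 2020 and 2026 under HF. In CTRL males it had 1370, 1894 and 2737 under LF and 2420, 3353 and 3471 under HF. The female groups were apart, where 18.4% of all genes were likewise higher without overlap, and the male groups overlapped. In VDD males the range was 915 to 1884 under LF and 1625 to 3984 under HF, and in VDD females 675 to 1410 and 876 to 2593. The averaged difference was 0.72 (SE 0.20, adjusted p = 0.0106 by limma), just outside the threshold of 0.01.

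Adgre1 ranged from 171 to 965 normalized reads in the 12 LF libraries (median 356) and from 186 to 1717 in the 12 HF libraries (median 738). Mrc1, which binds mannose-bearing glycoproteins, ranged from 589 to 1826 under LF (median 884) and from 692 to 3516 under HF (median 1513). For both genes the LF and HF ranges overlapped widely. Their averaged differences were 0.98 (SE 0.29, adjusted p = 0.0169) for Adgre1 and 0.53 (SE 0.19, adjusted p = 0.0377) for Mrc1 by limma. Without the 4 libraries rich in muscle genes the differences were 1.26 for Adgre1, 0.94 for Csf1r, 0.83 for Mrc1, 1.18 for Cd68 and 1.34 for Folr2. That fit held 1 VDD HF male, mouse 2308, which had the highest level of its group for each of these genes. Single libraries shifted calls: Adgre1 became called without VDD LF male 2310, VDD LF female 2312 or VDD HF female 2083, with an adjusted p as low as 0.00633, and Csf1r without any of those or without CTRL LF male 2296, VDD HF male 2298 or VDD HF female 2121, with an adjusted p as low as 0.00482.

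Lyve1 and Timd4 passed neither threshold for diet over the 24 libraries. Lyve1 ranged from 92.2 to 691 normalized reads under LF and from 96.1 to 676 under HF, a difference of 0.37 (SE 0.32, 95% interval -0.30 to 1.04, adjusted p = 0.426 by limma). Timd4 ranged from 12.9 to 93.6 under LF and from 13.7 to 103 under HF, a difference of 0.40 (SE 0.27, 95% interval -0.16 to 0.96, adjusted p = 0.282). Both intervals include the difference found for Csf1r, so a rise of that size was not excluded. Without the 4 muscle-rich libraries, a fit with mouse 2308 as the only VDD HF male, Lyve1 differed by 0.82 and Timd4 by 0.67. In VDD males alone the Lyve1 difference was 0.50 with all libraries and -0.26 without mouse 2308. Without the libraries named renal the averaged differences of Lyve1 and Timd4 were 0.63 (adjusted p = 0.255 by limma) and 0.60 (adjusted p = 0.202).

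**Figure D2:**
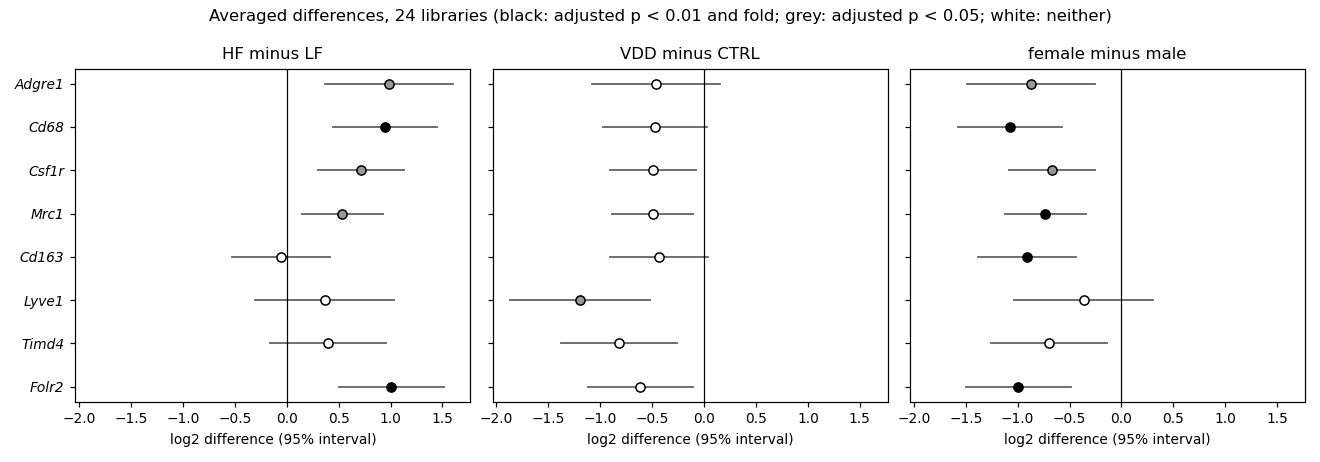
Log2 differences of the 8 markers (horizontal axis) with 95% intervals for HF minus LF, VDD minus CTRL and female minus male, each averaged over the other factors in 24 libraries. Black points passed an adjusted p of 0.01 and the fold threshold, grey points an adjusted p of 0.05 and white points neither. Cd163 lies at -0.06 for diet while Folr2 lies at 1.01, and all 8 points lie below 0 for VDD minus CTRL.

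In the comparisons of 2 groups, no member was called by limma at the study's thresholds under HF in any of the 4 settings, where 0.0578% of genes were called in CTRL males (0.0128% higher, 0.0449% lower), 0.0752% in VDD males (0.0313% higher, 0.0438% lower) and 0% in CTRL females and in VDD females. With DESeq2 at the same thresholds the study reported far more genes in each setting, so these shares belong to the test used here. At an adjusted p under 0.05, Folr2 was higher in CTRL males (1.12, SE 0.22, adjusted p = 0.0472) and in CTRL females (1.10, SE 0.21, adjusted p = 0.0333), and Csf1r in CTRL females (0.80, SE 0.13, adjusted p = 0.0242), by limma. This amounted to 1 of 8 members in CTRL males, where 0.699% of genes were higher, 0.468% lower and 1.17% either, and 2 of 8 in CTRL females, where 3.24% were higher, 4.16% lower and 7.4% either. In VDD males and VDD females 0 members passed, beside 5.35% (3% higher, 2.35% lower) and 0% of genes. At an unadjusted p under 0.05 there were 3 members in CTRL males, 2 in VDD males, 6 in CTRL females and 0 in VDD females, against 18.8%, 25.9%, 28.8% and 5.05% of all genes. Without overlap between groups, 2 members were higher in CTRL males, beside 13.3% of genes higher and 24.5% in either direction. In CTRL females 5 members were, beside 18.4% higher and 35.4% in either direction. In VDD males 0 were, beside 16.9% and 33.4%, and in VDD females 0, beside 5.46% and 11.7%. Whether the diet acted differently in VDD and CTRL offspring was tested directly: for Adgre1 the HF effect in males was larger after VDD by 0.93 (SE 0.83) and in females smaller by 0.60 (SE 0.83), and 0 members passed an adjusted p of 0.05 in either sex, with 0% of all genes called in both tests. Nor did any member pass for a difference of the HF effect between sexes (0.0272% of genes called).

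No effect of diet on Cd163 was detected. Its level under HF ranged from 261 to 1809 normalized reads and under LF from 371 to 2003, a difference of -0.06 (SE 0.23, 95% interval -0.53 to 0.42, adjusted p = 0.886 by limma). The upper end of the interval lies below the point estimates of Mrc1, Csf1r, Cd68, Adgre1 and Folr2, which is not a test between genes. The interval of Mrc1, 0.14 to 0.93, overlaps that of Cd163. Without the muscle-rich libraries Cd163 was at 0.21 (SE 0.22). Counted per read of Adgre1 in the same library, which removes the scaling between libraries, Cd163 was at 2.08, 2.46 and 2.75 in CTRL LF males and at 1.09, 1.32 and 1.6 in CTRL HF males. VDD males had 2.63, 3.66 and 4.15 under LF and 0.672, 1.05 and 1.22 under HF. All 6 HF males were below all 6 LF males, and the share of all genes whose ratio separates in this way was not computed. CTRL females had 1.5, 2.32 and 3.92 under LF and 1.08, 1.11 and 1.64 under HF. VDD females had 1.6, 2.13 and 2.82 under LF and 0.920, 1.02 and 3.47 under HF. Among females the ranges overlapped, chiefly through VDD HF female 2083, which had the lowest Adgre1 of the HF libraries. With every gene expressed relative to Adgre1, a test chosen after seeing the data, the ratio of Cd163 fell by 1.04 on the log2 scale (SE 0.29, adjusted p = 0.00655 by limma). In the same test 27.4% of all genes were called lower, as Adgre1 itself was higher under HF, so a lower ratio was common and not particular to Cd163. For the other 6 members the ratio differed by -0.62 to 0.03 and was not called. The call on Cd163 was kept in 10 of 24 fits with 1 library left out (those without CTRL LF male 2296, CTRL HF male 2128, VDD LF male 2310, VDD HF male 2298, CTRL LF female 2124, CTRL HF female 2290, VDD LF female 2312 or any VDD HF female), with adjusted p up to 0.0179 in the rest, and was lost without the libraries named renal (0.0290), without those rich in muscle genes (0.0121) and with no filter on low values (0.0102).

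**Figure D3:**
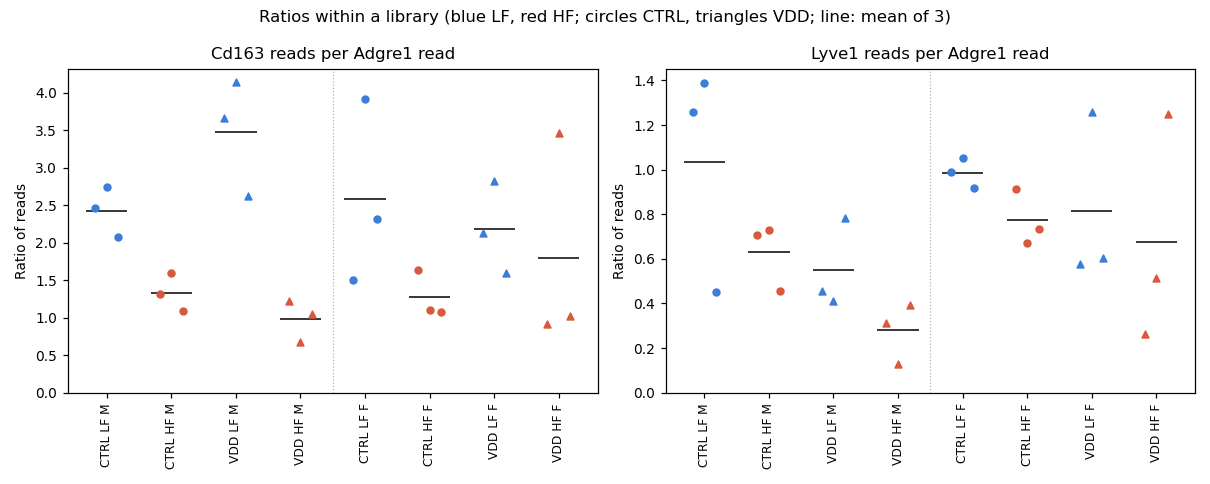
Reads of Cd163 (left) and Lyve1 (right) per read of Adgre1 in the same library, by group (M males, F females; LF blue, HF red; CTRL circles, VDD triangles; line, mean of 3). For Cd163 the 6 HF males lie between 0.672 and 1.6 and the 6 LF males between 2.08 and 4.15. The share of all genes whose ratio separates in this way was not computed, and 27.4% of genes were called lower under HF relative to Adgre1. For Lyve1 the VDD libraries range from 0.131 to 1.26 and the CTRL libraries from 0.453 to 1.39.

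The next question was whether the mother's vitamin D deficiency altered the markers. Averaged over diet and sex, all 8 members were lower in VDD than in CTRL offspring, by 0.44 to 1.19 on the log2 scale, and 0 were called, beside 0.103% of all genes. At an adjusted p under 0.05 only Lyve1 was lower, 1 of 8 members beside 2.05% of genes lower and 4.59% in either direction, and limma gave an unadjusted p under 0.05 for 5 of 8 members (Lyve1, Timd4, Mrc1, Folr2 and Csf1r) beside 22.9% of genes. The median of the 8 differences was -0.49, against -0.01 for all genes. The muscle-rich libraries belonged to VDD offspring, whose summed muscle genes had a median of 26114 normalized reads against 1723 in CTRL offspring, and of 7 mesothelial genes all were below CTRL (median difference -0.87) with 0 called. Of 7 mast cell genes all were lower as well (median -0.96, 0 called and 1, Cpa3, under an adjusted p of 0.05), as were 9 of 9 blood endothelial genes (median -0.22) and 7 of 8 B lymphocyte genes (median -0.58), with 0 called in both lists. Without the muscle-rich libraries the differences of the markers were smaller. Cd163 was then at -0.19, Adgre1 at -0.30, Mrc1 at -0.30, Csf1r at -0.31, Cd68 at -0.39, Folr2 at -0.46, Timd4 at -0.52 and Lyve1 at -0.89. That fit held mouse 2308 as the only VDD HF male, with Lyve1 at 676 normalized reads, against 180 and 109 in the omitted VDD HF males 2298 and 2307. Without the libraries named renal, Lyve1 (0.0215) and Csf1r (0.0436) kept an unadjusted p under 0.05 by limma. The part of the other cell types and of mesothelium in the markers' values was not tested.

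Lyve1 was at 437, 631 and 691 normalized reads in CTRL LF males and at 92.2, 103 and 488 in VDD LF males. In males on HF it was at 586, 591 and 609 after CTRL and at 109, 180 and 676 after VDD. In each VDD male group 2 mice lay far below every CTRL male, and the remaining mouse (2310 and 2308) lay within or above the CTRL range. In females on LF the values were 195, 215 and 458 after CTRL and 100, 216 and 322 after VDD. In females on HF they were 367, 492 and 570 after CTRL and 96.1, 285 and 319 after VDD. The HF female groups did not overlap, where 12.2% of genes were likewise lower without overlap and 23.1% did not overlap in either direction, and the LF female groups overlapped. The averaged difference was -1.19 (SE 0.32, 95% interval -1.86 to -0.52, adjusted p = 0.0408 by limma), 0.437 of the CTRL level. It was -0.89 without the muscle-rich libraries, a fit with mouse 2308 as the only VDD HF male, and -0.95 without those named renal (adjusted p = 0.247 by limma). Across the 24 fits that each dropped a library the adjusted p ran from 0.0104 to 0.0824.

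Timd4 showed its clearest separation in LF males, at 67.5, 77.3 and 93.6 normalized reads after CTRL and 22.8, 32 and 38.6 after VDD. Those groups did not overlap (6.82% of genes were lower without overlap and 13.1% did not overlap in either direction), and the difference was -1.33 (SE 0.32), with an adjusted p of 0.6001 by limma and an unadjusted p of 0.00391 beside 6.79% of genes under 0.05. On HF, CTRL males had 89.7, 90.2 and 103 and VDD males 22.1, 32.7 and 90.9. VDD HF male 2308 was within the CTRL range for Timd4 as it was above it for Lyve1. Females differed less, with 12.9, 35.7 and 51.3 in CTRL LF and 20, 27.0 and 39.1 in VDD LF mice, and 43.1, 47.9 and 61.3 in CTRL HF and 13.7, 30.9 and 70.7 in VDD HF mice. Both pairs of female groups overlapped. The averaged difference was -0.82 (SE 0.27, adjusted p = 0.0782), and it differed between sexes by 0.91 (SE 0.53, adjusted p = 0.739), so no difference between sexes was detected. Timd4 is the least abundant member, at 12.9 to 103 normalized reads, and its values carry the largest counting error.

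In the 4 comparisons of VDD with CTRL groups no member was called by limma, and 0% of all genes were called in each of them. At the same thresholds the study's DESeq2 tests reported many genes in each of the 4, so the 0% belongs to the test used here. At an unadjusted p under 0.05 there were 3 members in LF males (Timd4, Lyve1 and Mrc1), 2 in HF males (Timd4 and Lyve1), 1 in LF females (Cd68) and 1 in HF females (Lyve1), all lower in VDD, beside 6.79%, 5.31%, 12% and 16.7% of genes. Each of the 8 groups entered 2 comparisons, so these results share libraries. In HF males 1 library decided the result for Lyve1: the difference was -1.34 (SE 0.58, adjusted p = 0.940) with all 6 libraries and -2.10 without VDD HF male 2308, when it was called (adjusted p = 0.00410). Lyve1 was called in 1 of the 6 fits that each left out a library. The share of all genes called in that fit was not computed, and the 0% above belongs to all 6 libraries. For Adgre1 the difference in HF males was -0.06 and ran from -0.49 to 0.29 as single libraries were left out. Relative to Adgre1, Lyve1 differed between VDD and CTRL offspring by -0.73 (SE 0.31) and Timd4 by -0.36 (SE 0.31) on average, with adjusted p of 0.363 and 0.451 by limma, while the other 5 ratios lay between -0.15 and 0.02. In the ratio test 0.0109% of genes were called.

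Lyve1 is also carried by lymphatic endothelium, and Prox1, Mmrn1 and Flt4 were followed as its markers. The summed level of the 8 lymphatic genes was 885 to 2335 normalized reads in CTRL and 755 to 1719 in VDD libraries, 0 of 7 tested genes were called between them and 1 gene was at 0 in all libraries. On average 5 of these 7 genes were lower in VDD offspring (median -0.34), and in HF females, where Lyve1 did not overlap between groups, 7 of 7 were lower (median -1.10, 0 called). Across the 24 libraries the log2 level of Lyve1 correlated with that of Timd4 (r = 0.819, rho = 0.825) with that of Flt4 (r = 0.292, rho = 0.277) and with that of Mmrn1 (r = 0.053, rho = -0.033). Mmrn1 itself was higher in females by 4.16 on the log2 scale, which enters its correlation over both sexes. These values describe libraries that share group structure, and the part of lymphatic vessels in the difference of Lyve1 was not tested.

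A last question was how the sexes differed. Averaged over both diets, Cd68, Folr2, Cd163 and Mrc1 were lower in females than in males and no member was higher. The 4 of 8 members called lower compare with 2.68% of all genes called lower and 7.27% in either direction, and 6 of 8 were lower at an adjusted p under 0.05, beside 9.04% of genes. The median difference was -0.80 for the members and 0.01 for all genes. Cd68 had medians of 596 normalized reads in 12 males (184 to 1141) and 228 in 12 females (127 to 903), a difference of -1.07 (SE 0.24, adjusted p = 0.00371). Folr2 had 717 (281 to 1736) and 327 (197 to 1006), a difference of -0.99 (SE 0.24, adjusted p = 0.00696). The ranges overlapped for both.

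Cd163 had a median of 1262 normalized reads in males (556 to 2003) and 671 in females (261 to 1025), and it fell by 0.91 (SE 0.23, adjusted p = 0.00807). Only 3 of the 12 males, VDD LF male 2078 and VDD HF males 2298 and 2307, were within the range of the females for this gene, 2 of them rich in muscle RNA. Mrc1 had 1581 (803 to 3516) and 880 (589 to 1614), a difference of -0.73 (SE 0.19, adjusted p = 0.00951). Adgre1 at -0.87 (SE 0.29, adjusted p = 0.0427) and Csf1r at -0.67 (SE 0.20, adjusted p = 0.0228) passed the looser threshold only. Timd4 at -0.70 (SE 0.27, adjusted p = 0.0711) and Lyve1 at -0.36 (SE 0.32, adjusted p = 0.457) passed neither. All of these adjusted p-values are from limma over 24 libraries. Relative to Adgre1, no member was called between sexes, where the ratios differed by -0.20 to 0.51 and 13.9% of genes were called.

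VDD HF female 2081, the library high in T lymphocyte genes, changed the count: without it 6 of 8 members were called lower, Adgre1 (-1.07, adjusted p = 0.004998) and Csf1r (-0.79, adjusted p = 0.00287) joining the list. The share of all genes called in that fit was not computed, so whether calls rose for genes in general is not known. With single libraries left out, the call on Cd68 held in all 24 fits (adjusted p at most 0.00855), though not without the muscle-rich libraries (adjusted p = 0.0103). That on Mrc1 held in 6 of them (without CTRL HF male 2127, VDD LF male 2078 or 2302, VDD HF male 2298, CTRL LF female 2124 or VDD HF female 2081) and was lost in the other 18, with an adjusted p up to 0.0203, as it was by limma-voom (adjusted p = 0.0110). That on Cd163 held in 7 (without VDD LF male 2078, VDD HF male 2298 or 2307, CTRL HF female 2290, VDD LF female 2312, or VDD HF female 2081 or 2083; adjusted p up to 0.0173 in the rest). That on Folr2 held in 9 (without CTRL LF male 2287, CTRL HF male 2128, VDD LF male 2078 or 2302, VDD HF male 2298 or 2307, CTRL LF female 2124, VDD LF female 2312 or VDD HF female 2081; adjusted p up to 0.0150 in the rest). Without the libraries named renal, none of which is an HF female, 0 members were called, with differences of -0.86 to -1.27 for these 4 genes. Adrenal genes were higher in females, 3 of 3 called, beside 4.59% of all genes called higher. Their sum reached 32564 normalized reads in females and 321 in males. The lymphatic genes Mmrn1 (4.16, SE 0.63, adjusted p = 0.000144 by limma) and Prox1 (2.11, SE 0.46, adjusted p = 0.00314) were also higher in females. The part of these tissues in the lower macrophage markers of females was not tested.

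A list of 25 other genes of resident macrophages was followed beside the members. Of these, 7 were called higher under HF and 0 lower, beside 5.79% of all genes called higher and 3.65% called lower. Their median difference was 0.59. Mgl2, a lectin that binds galactose-type sugars, rose by 1.12 (SE 0.15, adjusted p = 4.06e-05) and Cd209g, a further C-type lectin, by 1.10 (SE 0.26, adjusted p = 0.00406). Females had 10 of 25 lower and 0 higher, beside 2.68% of all genes called lower and 4.59% called higher. All 25 were lower in VDD than in CTRL offspring, with 0 called, 1 (Dab2) under an adjusted p of 0.05 and a median of -0.39. Of 20 broader myeloid genes, 5 rose under HF, led by Ctss, a lysosomal protease (1.197, SE 0.31, adjusted p = 0.00764), and Cx3cr1, the fractalkine receptor (1.10, SE 0.24, adjusted p = 0.00209). Cx3cr1 was higher in females, by 1.12 (SE 0.24, adjusted p = 0.00282), whereas 3 genes of that list were lower.

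Genes of lipid-associated macrophages, which gather around dying adipocytes, gave 7 of 15 higher and 0 lower under HF, with a median difference of 0.77. Among all genes 5.79% were called higher and 3.65% lower under HF. Mmp12, an elastase of macrophages, rose by 3.11 (SE 0.53, adjusted p = 0.000314) and Itgax, an integrin chain of recruited macrophages and dendritic cells, by 2.04 (SE 0.31, adjusted p = 0.000146). Among 7 monocyte genes 0 rose and Chil3, a chitinase-like lectin, fell by 1.41 (SE 0.22, adjusted p = 0.000182). Of 8 dendritic cell genes 3 rose, with Ccl22 at 1.09 (SE 0.29, adjusted p = 0.00790) and Cd209a at 1.06 (SE 0.24, adjusted p = 0.00270). No gene was called under HF among 4 neutrophil, 7 mast cell, 9 T lymphocyte, 8 B lymphocyte, 9 blood endothelial, 7 lymphatic, 7 mesothelial, 12 muscle, 2 kidney or 3 adrenal genes that were tested. Of 9 adipocyte genes, Lep, the leptin gene, rose by 2.51 (SE 0.29, adjusted p = 1.33e-05) and Cidec, of the lipid droplet, fell by 0.66 (SE 0.15, adjusted p = 0.00326). The adjusted p-values here are from limma on the average of HF minus LF or of the sexes.

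Of the ligands and partners of the members, 4 of 18 were called higher under HF and 0 lower, beside 5.79% and 3.65% of all genes. They include both ligands of Csf1r, Csf1 (0.82, SE 0.15, adjusted p = 0.000615) and Il34 (0.69, SE 0.14, adjusted p = 0.00160). Hp, haptoglobin, which carries haemoglobin to Cd163, rose by 1.603 (SE 0.20, adjusted p = 2.48e-05), and Has3, a hyaluronan synthase, rose by 1.04 (SE 0.29, adjusted p = 0.00988). Csf1 was lower in VDD than in CTRL offspring by an adjusted p of 0.0223 but was not called (-0.66, SE 0.15). Among 12 transcription factors of macrophages 5 rose under HF, of which Spi1, encoding PU.1, was higher by 0.99 (SE 0.22, adjusted p = 0.00233) and Runx1 by 0.84 (SE 0.17, adjusted p = 0.00105), and 0 fell. In the same lists 0 genes were called between VDD and CTRL offspring.

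**Figure D4:**
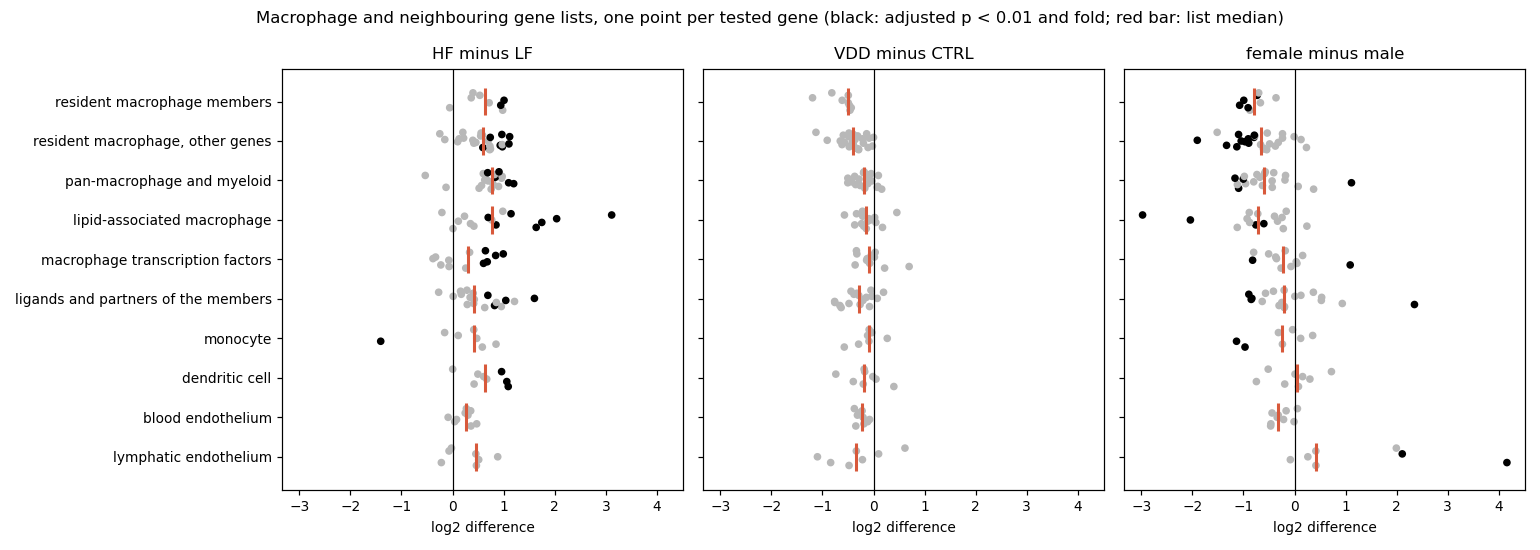
Log2 differences (horizontal axis) of the tested genes of 10 lists for HF minus LF, VDD minus CTRL and female minus male, 1 point per gene, with called genes in black and the list median as a red bar. The median of the 8 markers is 0.63, -0.49 and -0.80 in the 3 panels, and in the middle panel 0 genes of these lists are called.

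The 8 members were finally described by the genes whose log2 levels followed theirs most closely over the 24 libraries, among 12368 genes with a mean of at least 50 normalized reads. Adgre1 went with Lyz2, macrophage lysozyme (r = 0.970), and with the loci XLOC_023526 (0.969) and Gm36161 (0.963). Cd68 went with Cd300ld (0.979), Ptafr (0.974) and Slc11a1 (0.964), and Csf1r with Pld4 (0.967), Cfp (0.964) and Ptafr (0.961). Folr2 went with C1qc (0.961), Cfp (0.961) and Csf1r itself (0.960). Mrc1 was closest to F13a1, the A chain of coagulation factor XIII (0.979), then Cd33 (0.948) and Tlr8 (0.940). The nearest genes of these 5 members were thus all above 0.93.

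The other 3 members had looser company. Cd163 was nearest to Susd1 (r = 0.898), Map3k8 (0.869) and Msr1, a scavenger receptor (0.851). Timd4 was nearest to Pf4 (0.892), Alox5 (0.879) and Cd209b (0.872). Lyve1 was nearest to Pdgfra, a receptor of stromal progenitor cells (0.899), Cpa3 of mast cells (0.860) and Ntn1 (0.855), none of them a gene of the macrophage lists. Among the members, Folr2 and Csf1r correlated at r = 0.960 (rho = 0.957), Cd68 and Folr2 at 0.959 (rho = 0.955) and Adgre1 and Csf1r at 0.954 (rho = 0.953). By Pearson's r Lyve1 and Cd163 were the least alike, at 0.576 (rho = 0.653), and by rho Lyve1 and Adgre1, at 0.597 (r = 0.667). The points share diet, sex and any mixture of tissues, so these are descriptions over 24 libraries and carry no test.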

How the data were processed

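RNA-seq libraries of 24 mice were read from 8 tables, 1 per comparison of 2 groups. Per the submitters' processing notes and the study's methods, reads were aligned with STAR 2.7.0d, transcripts were assembled with Cufflinks 2.2.1 and reads per gene were counted with featureCounts 1.6.1 on mm10. The deposited values are log2(normalized reads + 1), made by the authors by dividing the reads of a library by a size factor for that table. The tables also hold the authors' own fold changes and p-values from DESeq2, which were not used. Of 56899 entries, 4 with duplicated names were left out.

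Back-transformed values were whole reads within 0.02 for 100.0% of entries, and the 24 libraries had identical reads in both tables that hold them. For averages, interactions and levels, all libraries were put on a common scale (median of ratios, 17314 genes) and taken as log2(normalized reads + 1). The log2 scale with an offset understates changes of low genes. Genes reaching 10 normalized reads in 3 or more libraries were tested with limma 3.58.1 (trend) in R 4.3.3, within each deposited table for the 8 comparisons and over the 8 group means for averages and interactions. The unit deposited being log2, limma on that scale was the main test, and the recovered reads were tested by limma-voom as an alternative. No negative binomial model was run. Fits were tested on simulated data. Tables and plots were made with Python 3.11.15, numpy 2.4.6, pandas 2.3.3 and matplotlib 3.10.9. Reads on genes numbered 13346779 to 18484346 per library.

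The members and the gene lists were chosen with earlier results of these data known. Groups were taken from the labels. The libraries are called by the mouse number of their column, since the columns do not carry the labels' replicate numbers. All 8 members were named with their values. From each list, at most 2 increases and 2 decreases called for HF minus LF were named, the largest of each. Of the lists of other cells and tissues, the 2 most abundant genes could be named, and for each member the 3 genes nearest by Pearson r. Dab2, Csf1, Il34, Mmrn1 and Prox1, and Cx3cr1 between sexes, were named after their values were seen. Alternatives were a pseudocount of 10, no filter, a trimmed mean of M-values, limma-voom, an adjusted p under 0.05, each library left out, 1 fit over 24 libraries, and leaving out the libraries named renal. Leaving out the 4 libraries with over 100000 reads of muscle genes and expressing genes relative to Adgre1 were chosen after seeing the data.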

Additional observations from a re-analysis of the deposited data

How the results depend on the processing

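The number of markers called for HF minus LF, 2 of 8, became 5 at an adjusted p under 0.05, 0 without the libraries named renal and 1 to 4 with single libraries left out. Without the libraries high in muscle genes 1 VDD HF male remained, and no count is given for that fit. Shares of all genes called were not computed for fits with libraries left out. The 4 called for female minus male became 1 with no filter on low values, 0 without the libraries named renal, 3 by limma-voom, where Mrc1 lost its call, and 1 to 6 with single libraries left out. For VDD minus CTRL, 0 became 1 at an adjusted p under 0.05. Of the 8 comparisons, all with 0 called, CTRL males under HF gave 1 and CTRL females 2 at that threshold, and VDD HF minus CTRL HF males gave 0 to 1 with single libraries left out. Cd163 for HF minus LF was 0.0645 without the libraries named renal and 0.21 without those high in muscle genes, and -0.18 to 0.0794 with single libraries left out. Lyve1 for HF minus LF in VDD females was -0.0012 by limma-voom. Leaving out single libraries moved further differences across 0. In CTRL males under HF, Lyve1 ran from -0.16 to 0.17. In VDD males under HF, Cd163 ran from -0.79 to 0.0660, Lyve1 from -0.26 to 1.26 and Timd4 from -0.17 to 0.83. In VDD females under HF, Adgre1 ran from -0.21 to 1.11, Cd163 from -0.38 to 0.60, Lyve1 from -0.35 to 0.65 and Timd4 from -0.41 to 0.73. For VDD against CTRL, Adgre1 ran from -0.49 to 0.29 and Mrc1 from -0.73 to 0.10 in HF males, Adgre1 from -0.65 to 0.27 and Timd4 from -0.61 to 0.35 in LF females, and Cd68 from -1.004 to 0.20 and Cd163 from -0.88 to 0.0826 in HF females. The cause of these changes was not tested. A pseudocount of 10, the trimmed mean of M-values and 1 fit over 24 libraries changed no sign and no call of a marker. By deviations from group means, each marker shared at most 1 of its 3 nearest genes. No paired analysis was possible because the columns of the tables carry no replicate numbers. With 3 mice per group the intervals are wide, and where an interval includes 0, differences up to its ends were not excluded.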
